A study of Mus musculus with 6 samples.

Results

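The nuclear-encoded genes of the mitochondrial respiratory chain were followed in mDE6, a mouse cell line, with and without a hairpin RNA against Arl4c. They were chosen by name: nuclear genes for subunits of NADH dehydrogenase (complex I, names beginning Nduf), succinate dehydrogenase (complex II, Sdh), the cytochrome bc complex (complex III, Uqcr and Cyc1), cytochrome c oxidase (complex IV, Cox with a subunit number) and ATP synthase (complex V, Atp5), with the electron carrier cytochrome c (Cycs). This gave 87 genes: 38 of complex I, 4 of complex II, 9 of complex III, 16 of complex IV, 19 of complex V and Cycs. Of these, 83 were among the 22032 genes listed in the deposited table and 80 were among the 14740 tested, which averaged 1 CPM or more over the 6 libraries (CPM, reads per gene scaled to library size). Cox7a1, Cox7b2, Cox8b and Cox8c were not listed, and Ndufa4l2, Cox6a2 and Cox6b2 were listed below that level. Ndufb1-ps, Usmg5 and Atpif1 are counted by their RefSeq or newer names (Ndufb1, Atp5md and Atp5if1), and Ndufb1-ps is typed as a non-coding RNA in the older annotation. Ndufa4 is counted with complex I by its name, although its protein is a component of complex IV.

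Total RNA was sequenced from 3 libraries of mDE6 expressing shArl4c, a short hairpin RNA against Arl4c, and 3 expressing shControl, a control hairpin. Arl4c is a GTPase related to the ARF proteins of membrane traffic. The labels give 1 hairpin label per group and do not describe separate cultures, the tissue of origin or the time after the hairpin was introduced. P-values here therefore reflect variation among these samples alone, possibly technical, and an effect of less Arl4c cannot be told apart from any other effect of that hairpin.

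The chain passes electrons from NADH through complex I, or from succinate through complex II, to ubiquinone, then through complex III to cytochrome c, and through complex IV to oxygen. Complexes I, III and IV pump protons across the inner mitochondrial membrane, and complex V lets them flow back to make ATP. Complexes I, III, IV and V each combine proteins encoded in the nucleus with a few encoded in mitochondrial DNA, whereas all subunits of complex II are encoded in the nucleus.

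Libraries are named by the numbers in the deposited table, shArl4c 2, 3 and 4 and shControl 1, 2 and 3, and held 12316770 to 14976113 reads. The targeted gene was listed at 6.75, 7.42 and 6.89 CPM in shArl4c 2, 3 and 4, against 20.7, 21.0 and 20.1 CPM in shControl 1, 2 and 3. The groups did not overlap, and the log2 fold change of CPM + 1, shArl4c over shControl, was -1.43 ± 0.09 (± SE; adjusted p by limma 2.08e-10). Of the marker lists, 6 of 6 mesenchymal genes averaged 1 CPM or more and summed to 18225 to 19055 CPM in shArl4c libraries, against 30245 to 31647 CPM in shControl libraries, and that difference came mainly from Col1a1 and Col1a2. Epithelial markers were near 0 apart from Trp63: 6 of 7 were listed and they summed to 7.65 to 8.42 CPM in shArl4c libraries and 5.98 to 6.93 CPM in shControl libraries, with Epcam not listed and Cdh1 at 0 in the shArl4c libraries. Of 6 muscle genes 2 were listed, at sums of 0.225 to 0.459 CPM in shArl4c and 0.0738 to 0.336 CPM in shControl, and the 3 leukocyte genes summed to 1.02 to 2.02 CPM in shArl4c and 2.07 to 2.49 CPM in shControl. The mesenchymal genes did not move together. Prrx1 also fell (log2 fold change -0.95), whereas Pdgfra rose, at 237, 232 and 233 CPM in shArl4c 2, 3 and 4, against 138 CPM in each shControl library. Its log2 fold change was 0.76 (adjusted p by limma 1.25e-11). Vim and Twist1 did not pass (adjusted p = 0.351 and 0.359). The part of these marker differences in what follows was not tested. In these bulk samples, fewer cells of a type and less RNA per cell cannot be told apart.

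The library shArl4c 3 stood apart in the respiratory chain genes. It was the lowest of the 3 shArl4c libraries for 77 of the 80 genes (96.3%), as against 6383 of 14740 tested genes (43.3%). All 80 lay below the mean of shArl4c 2 and 4 in this library, by a median of -0.20 on the log2 scale and a range of -0.52 to -0.02, against a median of -0.04 over 12191 protein-coding genes. Short transcripts were low in shArl4c 3 in general. The median difference was -0.13 for protein-coding genes with transcripts of 204 to 1830 bases, -0.07 for 1831 to 2766 bases, -0.04 for 2768 to 3771 bases, -0.02 for 3772 to 5240 bases and 0.03 above that. Respiratory chain transcripts had a median length of 870 bases, against 3232 bases over protein-coding genes, and 68 of the 80 were no longer than 1830 bases. The median difference of those 68 was -0.22. The part of transcript length in the results below was not tested.

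**Figure D1:**
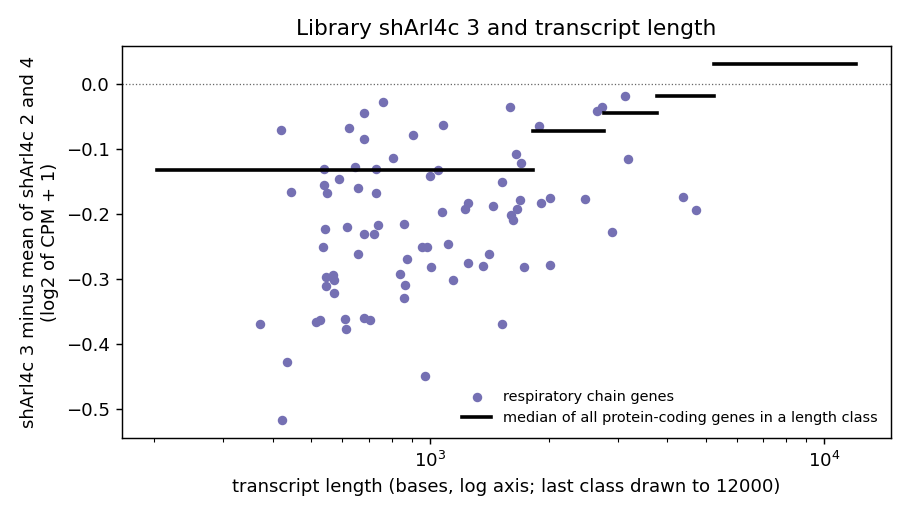
Each point is 1 of the 80 tested respiratory chain genes, placed by the length of its principal transcript (bases, log axis) and by its level in library shArl4c 3 minus the mean of shArl4c 2 and 4 (log2 of CPM + 1). Black lines are medians of all tested protein-coding genes in 5 length classes; all 80 points lie below 0, and the black lines run from -0.13 in the shortest class to 0.03 in the longest.

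Of 80 tested respiratory chain genes, 10 rose and 5 fell in shArl4c cells at an adjusted p under 0.05, and 65 did not pass the test. The share that changed was 18.8%, where 36.9% of all tested genes changed, 18.9% being higher and 18% lower. Without the library shArl4c 3, 31 rose (38.8%) and 3 fell (3.75%), where 23.8% of all tested genes rose and 21.4% fell. With each library scaled to its plain total, 15 rose and 4 fell, where 23.2% of all tested genes rose and 15.9% fell. Log2 fold changes ran from -0.32 for Atp5k, which did not pass, to 0.31 for Uqcrc1, with a median of 0.03 against 0.01 over all tested genes. A change of more than 0.25 in either direction was found for 5 of the 80 genes (6.25%), and for 4593 of all 14740 (31.2%). The groups did not overlap for 16 of the 80 genes (20%), 9 higher and 7 lower in shArl4c. Over all tested genes 46.8% did not overlap, 24.3% higher and 22.5% lower.

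The genes that rose were Uqcrc1, Cyc1, Uqcrfs1 and Uqcrc2 of complex III, the carrier Cycs, Sdhd of complex II, Ndufb5 and Ndufa9 of complex I, Cox7b of complex IV and Atp5f1 of complex V. Those that fell were Ndufs5 and Ndufa13 of complex I, Sdhc of complex II, Cox6a1 of complex IV and Atpif1, the gene of the inhibitor of complex V. Complex III was the only complex with as many as 4 changed genes in 1 direction, but the difference between complexes was not tested. Median log2 fold changes were 0.01 for complex I, -0.03 for complex II, 0.05 for complex III, 0.02 for complex IV and 0.05 for complex V. The within-group SD of the median of a complex, pooled over both groups, was 0.08 to 0.13 on the log2 scale. Most of it came from the shArl4c libraries. For complex I the medians, as differences from the shControl mean, were 0.09, -0.14 and 0.04 in shArl4c 2, 3 and 4. They were 0.02, -0.01 and -0.01 in shControl 1, 2 and 3.

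**Figure D2:**
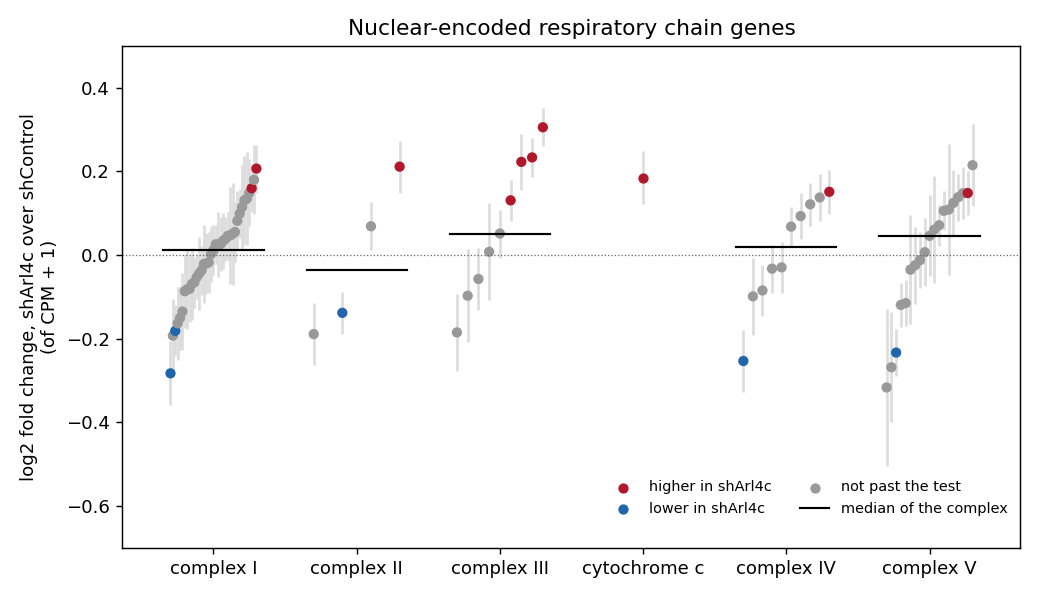
Each point is 1 tested gene, grouped by complex, with its log2 fold change of CPM + 1, shArl4c over shControl, on the vertical axis; bars on points are standard errors and black lines are medians of a complex. Coloured points passed the test (10 higher and 5 lower), and the medians of the 5 complexes lie between -0.03 and 0.05.

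Promoter windows from RefSeq (mouse build GRCm38.p6, 250 bases before to 50 bases after the start of a gene) were matched to 68 of the 80 tested genes. They are printed for the gene with the largest rise, for the carrier Cycs and for 3 of the genes that fell, so that the windows of genes moving in opposite directions can be read side by side. Capitals mark matches to the motif of NRF1 (nuclear respiratory factor 1), which reads GCGC, then A, then any base N, then GCGC, and of ETS factors such as GABPA, CCGGAAG, both searched on both strands. The coordinates are of that build and not of GRCm39, the build of the expression values.
Uqcrc1, chr9:108936398-108936697, plus strand: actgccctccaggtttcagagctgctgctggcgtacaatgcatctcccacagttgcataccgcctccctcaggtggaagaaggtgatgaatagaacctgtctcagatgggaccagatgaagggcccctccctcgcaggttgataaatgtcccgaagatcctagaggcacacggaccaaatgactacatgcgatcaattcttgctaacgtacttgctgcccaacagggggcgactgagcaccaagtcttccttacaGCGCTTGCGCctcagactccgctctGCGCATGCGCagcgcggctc
Cycs, chr6:50566520-50566819, minus strand: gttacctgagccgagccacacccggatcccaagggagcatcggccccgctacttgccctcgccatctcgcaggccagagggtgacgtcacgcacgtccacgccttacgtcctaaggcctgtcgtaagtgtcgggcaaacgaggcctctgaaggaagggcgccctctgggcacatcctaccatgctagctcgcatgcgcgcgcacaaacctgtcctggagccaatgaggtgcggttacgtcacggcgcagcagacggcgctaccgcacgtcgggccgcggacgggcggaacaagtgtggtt
Ndufs5, chr4:123718137-123718436, minus strand: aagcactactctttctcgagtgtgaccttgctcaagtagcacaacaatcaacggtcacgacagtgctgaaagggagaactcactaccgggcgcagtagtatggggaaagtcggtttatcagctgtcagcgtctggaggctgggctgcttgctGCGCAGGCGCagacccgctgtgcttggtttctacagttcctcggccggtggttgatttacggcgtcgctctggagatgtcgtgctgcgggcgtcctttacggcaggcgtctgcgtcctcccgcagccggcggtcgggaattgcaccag
Cox6a1, chr5:115348909-115349208, minus strand: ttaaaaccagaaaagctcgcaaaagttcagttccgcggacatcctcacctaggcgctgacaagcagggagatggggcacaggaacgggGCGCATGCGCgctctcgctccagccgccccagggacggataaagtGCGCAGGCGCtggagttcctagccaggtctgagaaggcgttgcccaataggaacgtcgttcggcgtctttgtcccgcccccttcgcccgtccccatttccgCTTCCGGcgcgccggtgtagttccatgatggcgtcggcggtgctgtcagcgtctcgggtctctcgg
Atpif1, chr4:132535365-132535664, minus strand: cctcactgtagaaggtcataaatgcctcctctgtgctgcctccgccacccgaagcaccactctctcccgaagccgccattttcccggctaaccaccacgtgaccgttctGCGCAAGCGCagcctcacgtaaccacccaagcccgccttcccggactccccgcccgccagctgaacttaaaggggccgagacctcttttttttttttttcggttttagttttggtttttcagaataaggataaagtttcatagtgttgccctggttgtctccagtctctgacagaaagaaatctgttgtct

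The window of Uqcrc1 holds 2 NRF1 matches, that of Cox6a1 2 NRF1 matches and 1 ETS match, and those of Ndufs5 and Atpif1 1 NRF1 match each. The window of Cycs holds no match, which says only that these letters are not in it. Genes were counted if any of their windows held a motif. Of the respiratory chain genes 18 of 68 (26.5%) held the NRF1 motif. It was held by 1152 of 10008 tested genes with a window (11.5%) and 1402 of all 27025 genes with a window (5.19%). The ETS motif was in 17 of 68 (25%), against 20.2% of tested genes and 9.93% of all genes with a window. The motif of YY1, AAGATGG, was in 11 of 68 (16.2%), against 8.45% of tested genes and 7.28% of all genes with a window. By direction, the NRF1 motif was in the windows of 2 of the 8 genes that rose and had a window and of 3 of the 4 genes that fell and had one. Those 3 are the fallen genes printed above. The window of the other, Ndufa13, held no match to any of these motifs and is not printed. Of the 2 that rose, Uqcrc1 is printed and Sdhd is not. These matches describe letters in the windows and show no binding.

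Complex I takes electrons from NADH and is the largest of the complexes, built from core subunits that hold its flavin and iron-sulphur centres and from accessory subunits around them. Of its 37 tested genes 2 rose, 2 fell and 33 did not pass the test, where 18.9% of all tested genes rose and 18% fell. Ndufb5, an accessory subunit of the membrane arm, had 42.3, 40.3 and 42.1 CPM in shArl4c 2, 3 and 4, against 35.1, 36.2 and 36.2 CPM in shControl 1, 2 and 3. It was higher in each shArl4c library than in any shControl library, with a log2 fold change of 0.21 ± 0.06 (± SE; adjusted p by limma 0.00771). Ndufa9, an accessory subunit at the base of the matrix arm, had 79.2, 68.4 and 77.0 CPM in shArl4c, against 66.4, 65.1 and 68.9 CPM in shControl. Its library shArl4c 3 lay below shControl 3, so the groups overlapped, and its log2 fold change was 0.16 ± 0.06 (adjusted p = 0.0312).

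Ndufs5, an accessory subunit facing the intermembrane space, had 20.6, 19.4 and 20.7 CPM in shArl4c 2, 3 and 4, against 27.3, 24.3 and 23.0 CPM in shControl 1, 2 and 3. All 3 shArl4c libraries were lower and close to each other, and shControl 1 was the highest of its group. The log2 fold change was -0.28 ± 0.08 (adjusted p = 0.00666). Ndufa13, an accessory subunit also known as GRIM-19 from work on cell death, had 43.3, 38.1 and 43.5 CPM in shArl4c, against 48.0, 47.5 and 46.3 CPM in shControl. There was no overlap, and shArl4c 3 was the lowest library. Its log2 fold change of -0.18 ± 0.06 (adjusted p = 0.025) became -0.12 without that library and no longer passed (adjusted p = 0.0777).

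With all libraries the nuclear-encoded core subunits of complex I showed no change past the test. This grouping into core and accessory genes was made after the values were seen. Of the 7 nuclear core genes 0 passed, where 36.9% of all tested genes did. Their median log2 fold change was 0.03 and the highest 0.10, for Ndufv1, which binds NADH. At an unadjusted p under 0.05 limma also had 0, as had edgeR and DESeq2 after adjustment. Without shArl4c 3 the median of the core genes was 0.08 and Ndufv1 passed, at 0.16 (adjusted p = 0.00544). Their summed level was 531, 458 and 506 CPM in shArl4c 2, 3 and 4, against 489, 493 and 506 CPM in shControl 1, 2 and 3, so the lowest and the highest sum were both shArl4c libraries. The 29 accessory genes ran from -0.28 to 0.21, with a median of 0.00. Ndufa1, a small membrane-arm subunit, was higher in each shArl4c library but did not pass, at 22.7, 20.0 and 19.5 CPM in shArl4c, against 19.0, 18.9 and 16.7 CPM in shControl (log2 fold change 0.18 ± 0.08, adjusted p = 0.1), and it passed without shArl4c 3, at 0.20 (adjusted p = 0.048). Ndufb4 had 20.0 ± 3.56 CPM in shArl4c and 19.1 ± 1.90 CPM in shControl (SD, n = 3 each) and passed only without shArl4c 3, at 0.20 (adjusted p = 0.0464). It is uncertain, because the table also lists a pseudogene copy, Ndufb4c, with which it may share reads.

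Succinate dehydrogenase has 4 subunits and is also an enzyme of the tricarboxylic acid cycle. Its genes moved in different directions. Sdhd, a membrane anchor subunit, had 57.7, 51.6 and 60.5 CPM in shArl4c 2, 3 and 4, against 48.1, 51.5 and 46.6 CPM in shControl 1, 2 and 3. The groups were separated by only 0.133 CPM, between shArl4c 3 and shControl 2, and the log2 fold change was 0.21 ± 0.06 (± SE; adjusted p by limma 0.0119). Sdhc, the other membrane anchor, had 73.5, 66.0 and 69.6 CPM in shArl4c, against 75.4, 78.7 and 76.0 CPM in shControl. All shArl4c libraries were lower, with a log2 fold change of -0.14 ± 0.05 (adjusted p = 0.0394), which was -0.10 and did not pass without shArl4c 3 (adjusted p = 0.0804).

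Sdhb, the iron-sulphur subunit, had 54.7, 42.7 and 51.1 CPM in shArl4c, against 56.2, 54.8 and 57.9 CPM in shControl. The groups just missed overlapping, but the difference did not pass the test (log2 fold change -0.19 ± 0.07, adjusted p = 0.063). Sdha, the flavoprotein that binds succinate, had 141, 119 and 138 CPM in shArl4c, against 122, 131 and 126 CPM in shControl. Its groups overlapped, shArl4c 3 being the lowest of the 6 libraries, and its log2 fold change was 0.07 ± 0.06 (adjusted p = 0.393). Without that library Sdha was higher by 0.14 (adjusted p = 0.00237).

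Complex III hands electrons from ubiquinol to cytochrome c, and 4 of its 9 genes rose (18.9% of all tested genes rose). Uqcrc1, a core subunit on the matrix side, had 119, 111 and 120.0 CPM in shArl4c 2, 3 and 4, against 93.1, 96.1 and 92.7 CPM in shControl 1, 2 and 3. Every shArl4c library was above every shControl library, and the log2 fold change of 0.31 ± 0.05 (± SE; adjusted p by limma 2.61e-05) was the largest rise among the 80 genes, 23.9% in mean CPM. Cyc1, the haem-bearing subunit that passes electrons to cytochrome c, had 186, 166 and 183 CPM in shArl4c 2, 3 and 4, against 153, 151 and 149.9 CPM in shControl 1, 2 and 3. There was again no overlap, although shArl4c 3 lay closest to the shControl libraries, and the log2 fold change was 0.23 ± 0.05 (adjusted p = 4.83e-04).

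Uqcrfs1, the Rieske iron-sulphur protein, had 77.5, 64.3 and 79.1 CPM in shArl4c, against 61.9, 63.7 and 62.6 CPM in shControl. Here shArl4c 3 lay 0.629 CPM above the highest shControl library while the other shArl4c libraries were far above it, with a log2 fold change of 0.22 ± 0.07 (adjusted p = 0.0152). Uqcrc2, the second core subunit on the matrix side, had 79.3, 74.3 and 76.1 CPM in shArl4c, against 70.3, 68.0 and 71.3 CPM in shControl. Its shArl4c libraries were all higher by a small step, with a log2 fold change of 0.13 ± 0.05 (adjusted p = 0.0403). Cytochrome c itself, Cycs, which carries electrons to complex IV and also takes part in apoptosis, had 45.6, 44.7 and 44.9 CPM in shArl4c, against 42.5, 40.2 and 36.1 CPM in shControl. The shArl4c libraries lay within 0.920 CPM of each other and above all shControl libraries, of which shControl 3 was lowest, and the log2 fold change was 0.19 ± 0.06 (adjusted p = 0.0267).

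Of the 5 small subunits of complex III, 0 passed in limma at an adjusted or unadjusted p under 0.05, and 0 in edgeR or DESeq2. Set apart after the values were seen, Uqcrb, Uqcrq, Uqcrh, Uqcr10 and Uqcr11 had log2 fold changes of -0.19 to 0.05 and a median of -0.06, against 0.13 to 0.31 and a median of 0.23 for the 4 core and catalytic genes. Summed, the 4 genes reached 461, 415 and 458 CPM in shArl4c 2, 3 and 4, against 378, 378 and 376 CPM in shControl 1, 2 and 3. The small subunits summed to 294, 234 and 293 CPM in shArl4c 2, 3 and 4, against 278, 286 and 285 CPM in shControl 1, 2 and 3. The first sum was above all shControl libraries in every shArl4c library, and the second was lowest in shArl4c 3 and highest in shArl4c 2. The small subunits' transcripts were 434 to 1521 bases long and those of the 4 other genes 1363 to 1896 bases. Without shArl4c 3, Uqcr10 rose as well, and the median of the small subunits was 0.03 against 0.30 for the core and catalytic genes.

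**Figure D3:**
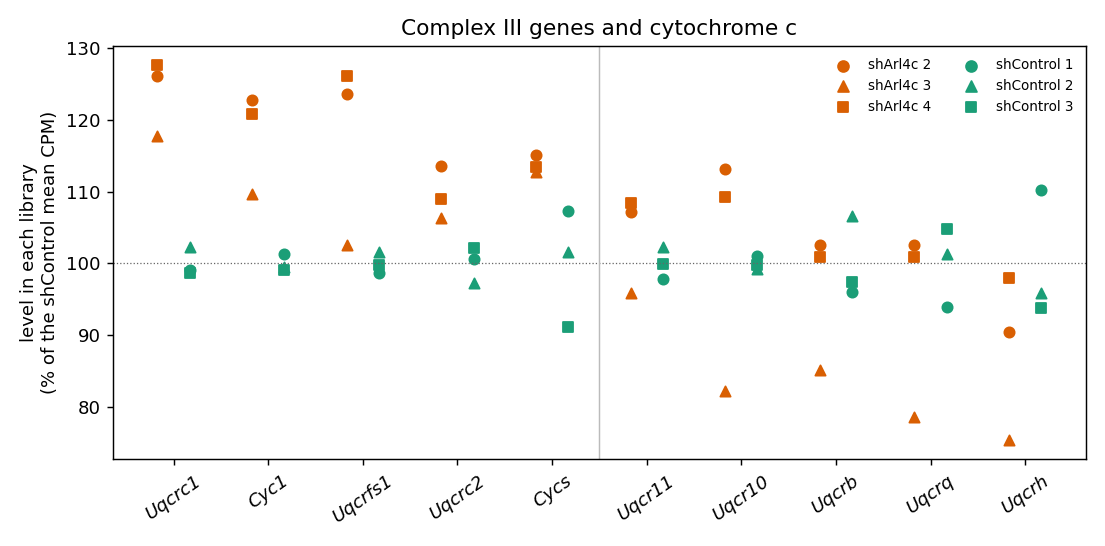
Level of each complex III gene and of Cycs in each library as a percentage of the mean CPM of the 3 shControl libraries, with shArl4c libraries drawn left of shControl libraries and a different marker for each library. For Uqcrc1, Cyc1, Uqcrfs1, Uqcrc2 and Cycs all shArl4c points lie above all shControl points, and for the 5 small subunits the library shArl4c 3 is the lowest.

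Complex IV reduces oxygen to water, and of its 10 tested genes 1 rose, 1 fell and 8 did not pass (18.9% of all tested genes rose and 18% fell). Cox6a1, the widely expressed form of subunit VIa, had 100.1, 83.0 and 105 CPM in shArl4c 2, 3 and 4, against 115, 114 and 113 CPM in shControl 1, 2 and 3. All shArl4c libraries were lower, shArl4c 3 by the most, and the shControl libraries were within 1.27 CPM of each other. Its log2 fold change was -0.25 ± 0.07 (± SE; adjusted p by limma 0.0206), and -0.15 without shArl4c 3 (adjusted p = 0.00191). Cox7b, a small membrane subunit, had 99.2, 89.6 and 98.5 CPM in shArl4c, against 87.0, 80.8 and 90.5 CPM in shControl. The groups overlapped, since shArl4c 3 lay below shControl 3, and the log2 fold change was 0.15 ± 0.05 (adjusted p = 0.0322).

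Where a subunit has tissue-specific forms, the transcripts were those of the form found in most tissues. Cox6a2, the heart and muscle form of subunit VIa, was too low to be tested, at 0.581, 0.300 and 0.383 CPM in shArl4c, against 1.33, 0.941 and 0.993 CPM in shControl, all 3 shArl4c libraries being lower. Those values rest on few reads, since 3 reads were worth 0.202 to 0.248 CPM. Cox6b1 had 85.7 ± 7.72 CPM in shArl4c and 87.4 ± 2.34 CPM in shControl (SD, n = 3 each), a log2 fold change of -0.03 ± 0.06, while Cox6b2, the testis form, had 0.436, 0 and 0.0765 CPM in shArl4c, against 0, 0.0672 and 0.248 CPM in shControl, at or near the level of 3 reads. Cox7a2 had 65.6 ± 4.31 CPM in shArl4c and 61.4 ± 1.45 CPM in shControl and Cox8a 136 ± 9.27 CPM in shArl4c and 125 ± 5.07 CPM in shControl, and neither passed the test (log2 fold changes 0.09 ± 0.05 and 0.12 ± 0.05, adjusted p = 0.204 and 0.0723). Without shArl4c 3 both passed, Cox7a2 at 0.15 and Cox8a at 0.18 (adjusted p = 0.0136 and 3.16e-04), and Cox8a also passed under plain CPM and quantile scaling of all libraries. Cox7a2l, a factor that joins complexes III and IV, had 55.3 ± 4.44 CPM in shArl4c and 58.6 ± 2.94 CPM in shControl and a log2 fold change of -0.08 ± 0.06 (adjusted p = 0.314). Cox5a, a subunit on the matrix side, was higher in every shArl4c library at 55.0, 51.1 and 56.9 CPM in shArl4c, against 49.1, 48.6 and 50.1 CPM in shControl but did not pass (log2 fold change 0.14 ± 0.06, adjusted p = 0.0588), and it passed without shArl4c 3 at 0.18 (adjusted p = 0.00513). Ndufa4 had 117, 88.9 and 112 CPM in shArl4c, against 109.5, 101 and 95.4 CPM in shControl, its highest and lowest values both in shArl4c libraries (log2 fold change 0.05 ± 0.12). Without shArl4c 3 Ndufa4 passed at 0.17 (adjusted p = 0.00282). Its paralog Ndufa4l2 had 0.145, 0.375 and 0.306 CPM in shArl4c, against 0.517, 0.336 and 0.165 CPM in shControl.

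Some subunits lie outside the naming rule, among them Cox4i1, the general form of subunit IV, and Ndufab1, the acyl carrier subunit of complex I. Cox4i1 had 214, 168 and 209 CPM in shArl4c, against 196, 191 and 186 CPM in shControl. The groups overlapped, shArl4c 3 was the lowest library, and the log2 fold change was 0.03 ± 0.09 (adjusted p = 0.829), against 0.14 without that library (adjusted p = 8.38e-04). Ndufab1 had 48.9 ± 0.697 CPM in shArl4c and 46.8 ± 1.21 CPM in shControl (SD, n = 3 each) and a log2 fold change of 0.06 ± 0.05 (adjusted p = 0.418).

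ATP synthase had the most abundant transcripts of the chain, and of its 19 tested genes 1 rose, 1 fell and 17 did not pass (18.9% of all tested genes rose and 18% fell). The gene that fell was Atpif1, whose product binds the enzyme and blocks its reverse action of breaking down ATP. It had 55.3, 49.8 and 55.9 CPM in shArl4c 2, 3 and 4, against 64.4, 65.4 and 60.1 CPM in shControl 1, 2 and 3. The highest shArl4c library lay 4.13 CPM below the lowest shControl library, and the log2 fold change was -0.23 ± 0.06 (± SE; adjusted p by limma 0.00312). It was -0.18 without shArl4c 3 (adjusted p = 0.00348). Atp5f1, a subunit of the peripheral stalk, had 146, 129.7 and 153 CPM in shArl4c, against 132, 125 and 128 CPM in shControl. Its shArl4c 3 value lay between shControl values, and the log2 fold change was 0.15 ± 0.05 (adjusted p = 0.0361).

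The catalytic head of the enzyme (the F1 part: Atp5a1, Atp5b, Atp5c1, Atp5d and Atp5e, a grouping made after the values were seen) had 0 of 5 genes past the test in limma, edgeR and DESeq2, and 2 higher at an unadjusted p under 0.05 in limma. Atp5b, the catalytic subunit, had 1108, 974 and 1104 CPM in shArl4c 2, 3 and 4, against 982, 977 and 997 CPM in shControl 1, 2 and 3. In shArl4c 2 and 4 it was above all shControl libraries and in shArl4c 3 below them, with a log2 fold change of 0.11 ± 0.05 (adjusted p = 0.088). The F1 genes summed to 1999, 1736 and 2001 CPM in shArl4c 2, 3 and 4, against 1769, 1756 and 1805 CPM in shControl 1, 2 and 3. This is the pattern of Atp5b over all 5 genes. For each of them shArl4c 3 was the lowest shArl4c library, so leaving it out could only raise their log2 fold changes. Without it all 5 passed the test, where 23.8% of all tested genes rose, and their median was 0.22 on the log2 scale.

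Subunit c, which forms the rotating membrane ring, is made from 3 genes that encode the same mature protein. Atp5g1 had 101, 88.7 and 102 CPM in shArl4c, against 105, 101 and 109.9 CPM in shControl, a log2 fold change of -0.12 ± 0.05 (adjusted p = 0.115). Atp5g2 had 21.9, 17.6 and 18.1 CPM in shArl4c, against 14.3, 18.1 and 16.8 CPM in shControl, a log2 fold change of 0.21 ± 0.10 (adjusted p = 0.0995). Atp5g3 had 149, 126 and 146 CPM in shArl4c, against 129, 127 and 125 CPM in shControl, a log2 fold change of 0.14 ± 0.06 (adjusted p = 0.0639). Of the 3 genes 0 passed in limma, edgeR and DESeq2, 2 had an unadjusted p under 0.05 in limma, and the groups overlapped for each. Without shArl4c 3, Atp5g2 and Atp5g3 passed, at 0.27 and 0.21 (adjusted p = 0.0172 and 9.10e-06). Among the other genes, Atp5j of the peripheral stalk was lower in every shArl4c library at 55.5, 50.8 and 54.6 CPM in shArl4c, against 58.5, 57.8 and 58.7 CPM in shControl without passing (log2 fold change -0.12 ± 0.05, adjusted p = 0.0849), and Atp5k had the most negative value of the 80 genes at 3.41, 2.40 and 3.37 CPM in shArl4c, against 4.87, 4.91 and 2.65 CPM in shControl (log2 fold change -0.32 ± 0.19, adjusted p = 0.21).

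Levels between genes were compared as CPM per kilobase of principal transcript, taken from an older annotation. On this scale Atp5b was highest, at 554 CPM per kilobase in shArl4c and 514 in shControl. Cox8a stood at 248 in shArl4c and 228 in shControl, Cox7c at 231 and 220, Atp5a1 at 195 and 185, Atp5g3 at 194 and 176, and Cox6a1 at 168 and 200. Of the subunit c genes, Atp5g2 was at 26.3 in shArl4c and 22.4 in shControl and Atp5g1 at 20.6 and 22.3, both far below Atp5g3. For Atp5g1 this rests on its annotated transcript of 4715 bases, against 723 for Atp5g3 and 731 for Atp5g2. In mean CPM, Atp5g1 had 97.2 in shArl4c and 105 in shControl. That was nearer to Atp5g3, at 140 and 127, than to Atp5g2, at 19.2 and 16.4. The lowest tested gene was Atp5s, a coupling factor, at 2.63 in shArl4c and 2.71 in shControl.

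Without library shArl4c 3, many more genes passed, nearly all in 1 direction: 31 of 80 rose (38.8%) and 3 fell (3.75%), where 45.1% of all tested genes changed, 23.8% higher and 21.4% lower. All 80 genes lay below the mean of shArl4c 2 and 4 in shArl4c 3, so leaving it out raised every log2 fold change. Their median became 0.089, against 0.004 over all tested genes. Over tested protein-coding genes with transcripts of 204 to 1830 bases it was 0.075. The part of transcript length in these calls was not tested. All 10 genes that rose with all libraries were among the 31. The other 21 comprised 8 of complex V, 7 of complex I, 4 of complex IV, Sdha and Uqcr10. Of the 5 that fell, Ndufs5, Cox6a1 and Atpif1 remained and Ndufa13 and Sdhc did not. By complex, 9 of 37 rose in complex I, 2 of 4 in complex II, 5 of 9 in complex III, 5 of 10 in complex IV and 9 of 19 in complex V, with medians of 0.06, 0.03, 0.15, 0.08 and 0.13.

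Other libraries also carried calls. Leaving out shControl 1 ended 10 of the 15 calls (Ndufa13, Ndufa9, Ndufs5, Sdhc, Sdhd, Uqcrc2, Uqcrfs1, Cox6a1, Cox7b and Atp5f1), with adjusted p of 0.0549 to 0.0983. Leaving out shControl 2 ended 8 (Ndufa13, Ndufa9, Sdhc, Uqcrc2, Cox6a1, Cox7b, Atp5f1 and Cycs; 0.0593 to 0.202) and leaving out shControl 3 ended 9 (the same but for Cox7b, with Sdhd and Uqcrfs1; 0.0501 to 0.166). Without shArl4c 2, 6 ended (Ndufa9, Uqcrc2, Uqcrfs1, Cox7b, Atp5f1 and Cycs; 0.0643 to 0.162), and without shArl4c 4 the same 6 with Sdhc and Sdhd (0.0655 to 0.210). No direction changed among the 15 genes in these fits, which each test fewer libraries.

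The median over the chain was then taken library by library. The median gene of the chain differed from the shControl mean by 0.10 in shArl4c 2, -0.12 in shArl4c 3 and 0.08 in shArl4c 4 (log2 of CPM + 1), and by 0.02, -0.01 and -0.01 in shControl 1, 2 and 3. The shControl libraries were close to each other, while the shArl4c libraries lay on both sides of them. Summed over all 80 genes, the chain took 6754, 5811 and 6688 CPM in shArl4c 2, 3 and 4, against 6251, 6153 and 6192 CPM in shControl 1, 2 and 3. Uqcrc1, Cyc1 and Atpif1 were the only 3 genes of the 15 that passed the test under all 17 alternative ways of processing, and their highest adjusted p were 0.00646, 0.028 and 0.0392.

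**Figure D4:**
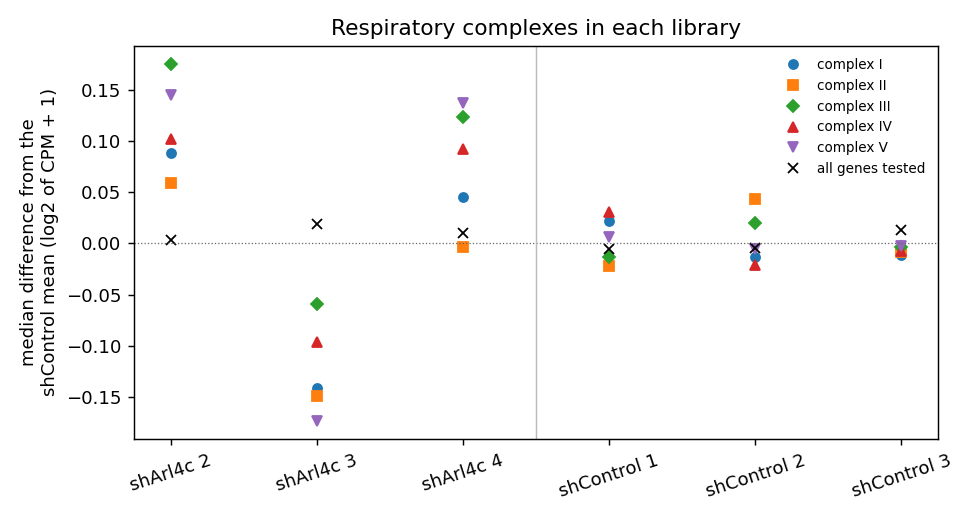
Median over the tested genes of each complex, and over all 14740 tested genes (black), of the difference from the shControl mean (log2 of CPM + 1) in each library, shArl4c libraries on the left. For every complex shArl4c 3 is the lowest library. The median of all tested genes is 0.003, 0.019 and 0.010 in shArl4c 2, 3 and 4.

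The subunits encoded in mitochondrial DNA, the partners of these genes in complexes I, III, IV and V, were lower where they passed the test. Of 13 genes 4 fell (18% of all tested genes fell), 11 of 13 log2 fold changes were negative, and the median was -0.30. The 13 take in mt-Co2 and mt-Co3, each listed at 0 in a library. They also take in mt-Nd4l, which kept its direction under 14 of 17 alternatives. The groups did not overlap for 7 of the 13, all lower in shArl4c, as for 22.5% of all tested genes. Both edgeR and DESeq2 on the recovered reads called 0 of 13 higher, and they called 4 and 7 lower. Of all genes they called 18.8% and 14.3% lower. Without shArl4c 3, limma called 2 of 13 lower, mt-Cytb and mt-Nd3, where 21.4% of all tested genes fell. mt-Cytb, the ubiquinol-oxidising subunit of complex III, had 755, 741 and 723 CPM in shArl4c 2, 3 and 4, against 895, 876 and 867 CPM in shControl 1, 2 and 3. Every shArl4c library was lower, with a log2 fold change of -0.25 ± 0.04 (± SE; adjusted p by limma 3.53e-05), so in complex III this subunit was lower while 4 nuclear genes were higher.

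mt-Nd1, a membrane subunit of complex I, had 377, 357 and 358 CPM in shArl4c, against 555, 521 and 436 CPM in shControl. Here too the groups were separate, shControl 3 lay nearest to the shArl4c libraries, and the log2 fold change was -0.46 ± 0.09 (adjusted p = 0.00465), or -0.45 without shArl4c 3, where it did not pass (adjusted p = 0.0807). mt-Nd4, another membrane subunit of complex I, had 657, 607 and 592 CPM in shArl4c, against 811, 807 and 674 CPM in shControl. Its pattern was the same, with a log2 fold change of -0.30 ± 0.07 (adjusted p = 0.0129), and -0.29 without shArl4c 3 (adjusted p = 0.17). mt-Nd3 had a smaller change, -0.15 ± 0.05 on the log2 scale (adjusted p = 0.0209). mt-Co1, the catalytic subunit of complex IV and the most abundant, had 7560.3 ± 205 CPM in shArl4c and 7582 ± 193 CPM in shControl (SD, n = 3 each), a log2 fold change of -0.00, but with quantile normalization it was called higher, at 0.31 (adjusted p by limma 1.19e-08). mt-Co3 was listed at 0 in shArl4c 3 and at 124 and 43.8 CPM in the other shArl4c libraries, and mt-Co2 was listed at 0 in shControl 2 and near 12 CPM elsewhere, so no fold is given for them.

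**Figure D5:**
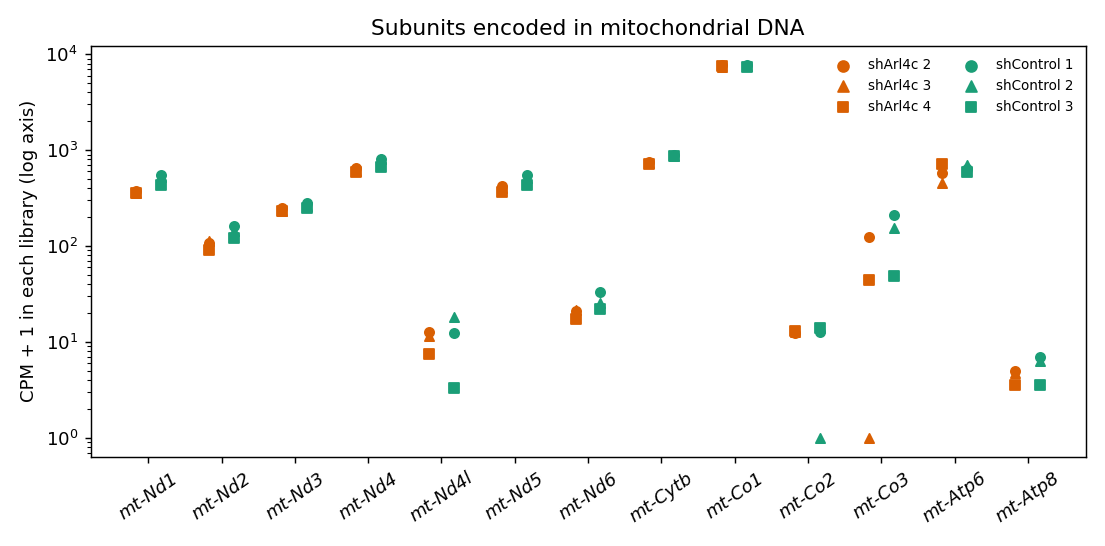
CPM + 1 (log axis) of the 13 subunits encoded in mitochondrial DNA in each library, shArl4c libraries drawn left of shControl libraries. For mt-Cytb, mt-Nd1, mt-Nd4 and mt-Nd3 all shArl4c points lie below all shControl points, the mt-Co1 points of the groups lie close together, and mt-Co2 and mt-Co3 have a library at 0.

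Assembly factors, which help build the complexes and are not part of them, were also followed. Of 16 tested factors of complex I 0 passed, where 36.9% of all tested genes did, and their log2 fold changes ran from -0.21 to 0.14. None had an unadjusted p under 0.05 in limma, and edgeR and DESeq2 also called 0. For complex II 1 of 4 rose (18.9% of all tested genes rose): Sdhaf2, which attaches the flavin to Sdha, had 44.4, 44.1 and 46.1 CPM in shArl4c, against 37.5, 39.9 and 40.5 CPM in shControl, with no overlap (log2 fold change 0.19 ± 0.06, adjusted p = 0.014). Of 6 factors of complex III 0 passed with all libraries in limma, edgeR and DESeq2 (2 higher at an unadjusted p under 0.05 in limma), with a median of 0.08. Without shArl4c 3, 4 of them rose in limma, where 23.8% of all tested genes rose. Of 22 tested factors of complex IV 3 rose and 1 fell, against 18.9% and 18% of all tested genes, and 6 rose without shArl4c 3.

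Cox19, a copper-handling assembly factor of complex IV, had 13.2, 14.8 and 14.9 CPM in shArl4c 2, 3 and 4, against 21.8, 20.9 and 22.8 CPM in shControl 1, 2 and 3. The groups were well separated, and its log2 fold change of -0.58 ± 0.08 (adjusted p = 1.16e-05) was larger in size than that of any of the 80 subunit genes. It passed under all 17 alternatives. Lrpprc, which stabilises mitochondrial messenger RNAs, had 109.7, 104 and 114 CPM in shArl4c, against 95.8, 95.9 and 97.5 CPM in shControl (log2 fold change 0.18 ± 0.05, adjusted p = 0.00421). Coa3, needed for early assembly of complex IV, had 36.8, 32.5 and 38.8 CPM in shArl4c, against 31.0, 30.9 and 30.0 CPM in shControl (log2 fold change 0.22 ± 0.07, adjusted p = 0.0149). Both were higher in every shArl4c library. The third that rose was Sco2, a copper chaperone, at 0.27 ± 0.10. Of 5 factors of complex V 1 fell, Atpaf1, which helps assemble the catalytic head, at 12.9, 11.5 and 14.7 CPM in shArl4c, against 16.6, 15.3 and 15.8 CPM in shControl (log2 fold change -0.28 ± 0.09, adjusted p = 0.0278). Without shArl4c 3 Atpaf1 no longer passed, at -0.19 (adjusted p = 0.0802), and 2 of the 5 rose.

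Among 15 tested regulators of respiratory chain genes, 3 rose and 1 fell, where 18.9% of all tested genes rose and 18% fell. Ppard, a nuclear receptor of lipid oxidation, had 97.3, 97.5 and 97.3 CPM in shArl4c, against 78.1, 80.9 and 75.0 CPM in shControl. The shArl4c libraries were nearly identical and above all shControl libraries (log2 fold change 0.32 ± 0.05, adjusted p = 1.76e-05). Tfam, which packages and transcribes mitochondrial DNA, had 41.4, 41.1 and 42.5 CPM in shArl4c, against 36.2, 36.2 and 34.6 CPM in shControl (log2 fold change 0.22 ± 0.06, adjusted p = 0.00534), and Polrmt, the mitochondrial RNA polymerase, had a log2 fold change of 0.21 ± 0.07 (adjusted p = 0.0201). Both were higher while the mitochondrially encoded subunits that changed were lower. Myc had 112, 104 and 106 CPM in shArl4c, against 127, 124 and 115 CPM in shControl, lower in every shArl4c library (log2 fold change -0.18 ± 0.05, adjusted p = 0.00601). Nrf1 and Gabpa, whose motifs were counted in the promoter windows, had log2 fold changes of 0.12 ± 0.06 and -0.02 ± 0.05 and did not pass (adjusted p = 0.114 and 0.821).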

How the data were processed

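RNA-seq of 6 mDE6 libraries, 3 per group, was analysed from 1 deposited table of CPM values per gene. Per the submitters' processing notes, the tools were Trimmomatic 0.38, RSEM 1.3.0, Bowtie2 and edgeR and the build GRCm39. Their order, and any use of strand in counting, are not given in the sources used here. Genes overlapping on opposite strands may share reads. Per the labels' protocols, the library kit was directional. The authors' CPM values were whole multiples of 1 read per column (100% of values, within 0.001 of a read), which gave totals of 13780358, 12941166 and 13033169 reads in shArl4c 2, 3 and 4 and 13639195, 14976113 and 12316770 in shControl 1, 2 and 3. A count of 0 allows up to 3 reads, 0.202 to 0.248 CPM, which covers counting error only. Columns carry other names than the samples and were mapped to a group only, those named shluc to shControl and those with a misspelt Arl4c to shArl4c. The numbers 2 and 3, shared by columns of both groups, did not pair the libraries.

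Of 22032 identifiers 21880 matched a symbol and 152 did not. Symbols, gene types and transcript lengths came from a GRCm38 annotation. Genes averaging 1 CPM or more were fitted on log2(CPM + 1) with limma 3.58.1 (R 4.3.3; trend, robust moderation, no covariate), with Benjamini-Hochberg adjustment over all 14740 tested genes and a threshold of 0.05, which 5445 genes passed. A fold change on this scale understates that of low genes. On the recovered reads, edgeR 4.0.16 (quasi-likelihood) called 5376 genes and DESeq2 1.42.0 called 4108. The fits were tested on simulated counts.

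Members and lists were chosen with earlier results of these data known. Values per library are given for Arl4c; in each complex for the 3 largest rises and 3 largest falls past the threshold with separate groups and averaging 5 CPM or more; for the Sdh genes, isoform sets, subunit c genes, Cycs, Cyc1 and Atpif1; and of each related list for up to 3 genes past the test with the smallest p. Single-gene results for 2 genes are not reported here. Ndufa9, Atp5f1, Uqcrc2, Ndufa1, Ndufb4, Cox5a, Cox7c, Atp5a1, Atp5b, Atp5j, Atp5k, Atp5s, Ndufab1, mt-Co1, mt-Co2, mt-Co3, mt-Nd3, Sco2, Polrmt, Nrf1 and Gabpa were named after their values were seen, as was the use of 0.25 as a size of change. Alternatives were another pseudocount (0.5 or 5), filter (none or 5 CPM), scaling, test, the block on column numbers and leaving out each library.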

Additional observations from a re-analysis of the deposited data

How the results depend on the processing

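The count of genes higher, 10, was 3 in DESeq2 on recovered reads, 3 in limma without trend and robust moderation and 3 in the fit with the replicate block on column numbers (13.6%, 15.2% and 11.2% of all genes rose in these fits). Leaving out 1 library gave 3 (without shArl4c 4) to 31 (without shArl4c 3), where 15% and 23.8% of all genes rose. The libraries shArl4c 2 and shControl 1, 2 and 3 left out in turn gave 4, 4, 5 and 4, where 16%, 14.8%, 14.7% and 16.1% of all genes rose. The count of genes lower, 5, was 2 in limma without trend and robust moderation and 2 with the block (15.3% and 12% of all genes fell). Leaving out 1 library gave 1 without shControl 1 (14.9% of all genes fell) to 6 without shArl4c 2 or 4 (16.4% and 15.7%). The count was 2 without shControl 2 (14.7%) and 3 without shArl4c 3 (21.4%). The median of complex III, 0.05, was 0.15 without shArl4c 3 and 0.019 without shArl4c 4. The other counts, complex medians and Arl4c kept their direction or stayed within the spread under the alternatives run. A count over some of the single genes did not take in every change. In it, 618 values under an alternative kept their direction and side of the threshold, 94 lost the call, 13 gained one and 5 changed sign. More calls were gained over the whole chain, where genes higher went from 10 to 31 without shArl4c 3 alone. More signs changed as well: Ndufb7 kept its direction under 11 of 17 alternatives and Atp5o under 12 of 17, neither being called in any. Leaving out 1 library gave -0.028 to 0.17 for Ndufa4, -0.031 to 0.14 for Cox4i1 and -0.086 to 0.041 for Cox6b1, the high value of each without shArl4c 3 and the low one without shArl4c 2. With all libraries 0 of these 3 genes was called, and without shArl4c 3 Ndufa4 and Cox4i1 were. The cause of these changes was not tested.

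The block pairs columns by the numbers 2 and 3, the only ones both groups share. The correlations of their deviations were -0.01 and -0.12, so the numbers do not pair the libraries. Among called genes, Ndufb5 and Ndufs5 passed under 15 of 17 alternatives, Cox6a1 under 13, Sdhd and Uqcrfs1 under 11, Ndufa13, Cox7b and Cycs under 10, Ndufa9 under 9, Sdhc and Atp5f1 under 7 and Uqcrc2 under 6. The median of all genes moved by at most 0.04 under any scaling. Plain CPM per column total gave 15 higher and 4 lower members, where 23.2% of all tested genes were higher and 15.9% lower. Of the genes named from related lists, Cox19, Ppard, Ogdh, Suclg2 and Slc25a5 passed under all 17 alternatives and Coq8a under all 16 it entered; the other called ones passed under 8 (Sco2) to 16.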

Other observations

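Of 14 genes of the tricarboxylic acid cycle, which feeds electrons to complexes I and II, 7 rose (18.9% of all tested genes rose). Their median was 0.14 on the log2 scale. Ogdh, of the oxoglutarate dehydrogenase complex, had 242, 227 and 245 CPM in shArl4c 2, 3 and 4, against 197, 191 and 199 CPM in shControl 1, 2 and 3. Every shArl4c library was higher, with a log2 fold change of 0.28 ± 0.04 (± SE; adjusted p by limma 3.31e-05). Suclg2, of the GTP-forming succinyl-CoA ligase, had 82.3, 72.7 and 72.6 CPM in shArl4c, against 64.7, 56.7 and 59.5 CPM in shControl (log2 fold change 0.33 ± 0.06, adjusted p = 2.91e-04). The groups did not overlap for this gene either. Without shArl4c 3, 10 of the 14 rose, where 23.8% of all tested genes did.

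Of 13 carriers and membrane genes 4 rose and 1 fell (18.9% and 18% of all tested genes), and 9 rose without shArl4c 3 (23.8%). The adenine nucleotide translocases, which exchange ADP and ATP across the inner membrane, moved in opposite directions. Slc25a5 had 383, 341 and 387 CPM in shArl4c 2, 3 and 4, against 259, 258 and 266 CPM in shControl 1, 2 and 3, with no overlap (log2 fold change 0.50 ± 0.05, adjusted p = 7.20e-08). Slc25a4, the heart and muscle form, had 361, 320.4 and 351 CPM in shArl4c, against 393, 382 and 390.0 CPM in shControl, lower in every shArl4c library (log2 fold change -0.18 ± 0.05, adjusted p = 0.00444; named after its values were seen). Immt, of the cristae-organising complex, had 211, 204 and 212 CPM in shArl4c, against 179.7, 179 and 184 CPM in shControl (log2 fold change 0.21 ± 0.04, adjusted p = 4.04e-04), and Phb, a prohibitin, 128, 107 and 115 CPM in shArl4c, against 98.8, 96.1 and 102 CPM in shControl (log2 fold change 0.23 ± 0.06, adjusted p = 0.00351). Both were higher in every shArl4c library.

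Of 12 genes of coenzyme Q synthesis, which supplies the ubiquinone that complexes I to III share, 3 rose and 1 fell (18.9% and 18% of all tested genes). Coq8a, an atypical kinase of the pathway, had 1.89, 1.95 and 1.91 CPM in shArl4c, against 3.17, 3.43 and 3.72 CPM in shControl, lower in every shArl4c library (log2 fold change -0.61 ± 0.15, adjusted p = 0.00291). Pdss2, a subunit of the enzyme that makes the side chain, had 15.6, 16.6 and 17.9 CPM in shArl4c, against 13.8, 14.3 and 12.7 CPM in shControl (log2 fold change 0.28 ± 0.09, adjusted p = 0.0163), and Coq7, a hydroxylase, 15.0, 11.9 and 15.2 CPM in shArl4c, against 12.0, 11.1 and 9.76 CPM in shControl, where shArl4c 3 lay below shControl 1 (log2 fold change 0.33 ± 0.11, adjusted p = 0.0203).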
